A study of Mus musculus with 12 samples.

Results

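The library tagged CSF1R held 986 called T cells from mouse mammary tumours, and it is set here beside the libraries tagged PBS1, with 245 cells, and PBS2, with 552. Cells were taken by their library tag in the deposited table of receptor contigs. In it, 11518 called cells came from the 6 libraries with a number in common with a sample title. Contigs outside called cells, or not marked productive, were set aside. That left 866 cells with a beta chain (TRB) and 764 with an alpha chain (TRA) in CSF1R, 192 and 188 in PBS1, and 432 and 404 in PBS2.

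The series sorted CD45+ leukocytes from mammary tumours of Balb/c mice and read their expression and T cell receptors with a 5′ droplet method. CSF1R carries a number shared by 2 expression libraries labelled Treated, and the labels name as treatment cyclophosphamide, an alkylating drug, with pexidartinib for 3 weeks. Pexidartinib is an inhibitor of the CSF1 receptor that macrophages need. PBS1 carries the number of an expression library labelled Untreated. For PBS2 the labels conflict: the receptor sample is given as Treated, and the expression sample it pairs with as Untreated, so its group is unclear. The labels define neither tag, give no age and no mouse for any library, and do not say whether the mice behind CSF1R received both drugs. With 1 library against 2, every comparison is a description without a test, and a difference between libraries cannot be told apart from a difference between mice or tumours. Spread between libraries is given as the gap between PBS1 and PBS2, and exact 95% intervals (Clopper-Pearson) cover counting error only.

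An alpha-beta T cell recognises peptides on MHC molecules through a receptor made of an alpha and a beta chain. Each chain is assembled in the thymus by joining a V gene to a J gene, with a short D gene between them in the beta chain, and bases are trimmed and added at the joints. The third complementarity-determining region (CDR3) spans the joint and contacts the peptide, so cells with the same CDR3 nucleotides on the same V gene are taken as descendants of a common ancestor. A T cell that has met its antigen divides, and its descendants then form a clone of several cells.

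The beta chain CDR3 of 3 CSF1R clones with 3 or more cells are shown first, since in each of them the cells with a TRA also shared it. Each is written 5′ to 3′, from the conserved cysteine that opens the CDR3 to the closing phenylalanine. V and J bases are in lower case and the joint between them in capitals. The V and J ends were read from the sequences of all clones using the same gene.
CSF1R clone of 7 cells, TRBV1 and TRBJ2-7: tgcagtgcagaATGGGGCGCGGagtacttc
CSF1R clone of 3 cells, TRBV5 and TRBJ2-3: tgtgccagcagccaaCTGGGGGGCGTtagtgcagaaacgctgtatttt
CSF1R clone of 3 cells, TRBV1 and TRBJ2-5: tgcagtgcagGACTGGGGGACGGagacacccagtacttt
All 3 joints hold a run of guanines, as the TRBD genes do. The leading clones of the PBS libraries, shown for comparison, were larger.
PBS1 clone of 17 cells, TRBV14 and TRBJ2-4: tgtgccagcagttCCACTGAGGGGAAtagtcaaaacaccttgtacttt
PBS1 clone of 12 cells, TRBV13-2 and TRBJ1-4: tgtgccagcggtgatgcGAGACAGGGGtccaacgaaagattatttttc
PBS1 clone of 9 cells, TRBV13-3 and TRBJ2-7: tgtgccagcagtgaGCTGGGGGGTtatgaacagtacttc
PBS2 clone of 27 cells, TRBV13-2 and TRBJ2-5: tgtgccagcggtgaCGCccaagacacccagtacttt

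A second set is shown because it was the only combination of 4 V and J genes found in all 3 libraries, TRBV13-1 with TRBJ2-7 and TRAV14N-1 with TRAJ58. Capitals here mark the bases that vary among the 4 clones, 6 of 39 in the beta chain and 2 of 39 in the alpha chain. Cell numbers are clone sizes by beta chain, and the CSF1R alpha chain was read in 1 cell.
CSF1R, 2 cells, beta: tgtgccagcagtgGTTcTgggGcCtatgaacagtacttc
PBS1, 4 cells, beta: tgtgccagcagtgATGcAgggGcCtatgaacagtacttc
PBS2, 1 cell, beta: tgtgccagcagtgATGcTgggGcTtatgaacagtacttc
PBS2, 6 cells, beta: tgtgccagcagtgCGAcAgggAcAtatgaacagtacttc
CSF1R, 2 cells, alpha: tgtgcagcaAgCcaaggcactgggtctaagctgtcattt
PBS1, 4 cells, alpha: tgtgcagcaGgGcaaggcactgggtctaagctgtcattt
PBS2, 1 cell, alpha: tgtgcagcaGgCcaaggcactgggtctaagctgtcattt
PBS2, 6 cells, alpha: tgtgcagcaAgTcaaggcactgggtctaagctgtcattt

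The libraries differed in depth, and the difference touches several values below. Reads per molecule, counted by unique molecular identifier (UMI), were 3701 to 6194 in the 3 libraries, so molecules and not reads set the depth. The leading TRB contig of a cell rested on a median of 5 UMIs in CSF1R, 10.5 in PBS1 and 7 in PBS2, and the leading TRA contig on 3, 6 and 4. By receptor class, the cells held 1 immunoglobulin contig, in CSF1R, and 1 gamma or delta chain contig, in PBS2. The libraries were enriched for T cell receptors, which would not recover B cell receptors. Recovery of gamma or delta chains was not tested, so the low counts cannot show that either kind of cell was absent. Cell barcodes shared between libraries numbered 2 for CSF1R and PBS2, 1 for PBS1 and PBS2, and 0 for CSF1R and PBS1.

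Beta chain clones in CSF1R were almost all seen once. Its 866 TRB cells fell into 844 clones, of which 830 held 1 cell, 10 held 2, 3 held 3 and 1 held 7. PBS1 spread 192 TRB cells over 133 clones with 13 of 2 or more cells, and PBS2 spread 432 over 376 with 15. The number of expanded clones was thus alike, at 14, 13 and 15, although CSF1R had the most TRB cells. Expanded clones made up 1.66% of clones in CSF1R (0.910 to 2.77). The share was 3.99% in PBS2 (2.25 to 6.49) and 9.77% in PBS1 (5.31 to 16.1).

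Drawing each library down to 192 TRB cells, as an exact expectation, put CSF1R at 190 clones, against 173 in PBS2 and 133 in PBS1. The share of cells in clones of 2 or more was then 1.55% in CSF1R, 13.6% in PBS2 and 37.5% in PBS1. CSF1R lay below both, 12.02 points from PBS2, and the PBS libraries were 23.9 points from each other. The PBS libraries therefore differed by more than CSF1R differed from the nearer of them. Asking for 3 or more drawn cells gave 0.370% in CSF1R, 9.78% in PBS2 and 32.3% in PBS1.

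The chance that 2 cells drawn from a library belong to the same clone does not depend on how many cells were sampled. It was 0.0107% in CSF1R, 0.444% in PBS2 and 1.62% in PBS1. Its inverse, the number of equally large clones that would give that chance, was 9364 in CSF1R, 225 in PBS2 and 61.7 in PBS1. The CSF1R figure exceeds the cells sampled and rests on 36 cells in 14 clones, so it is an extrapolation.

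**Figure D1:**
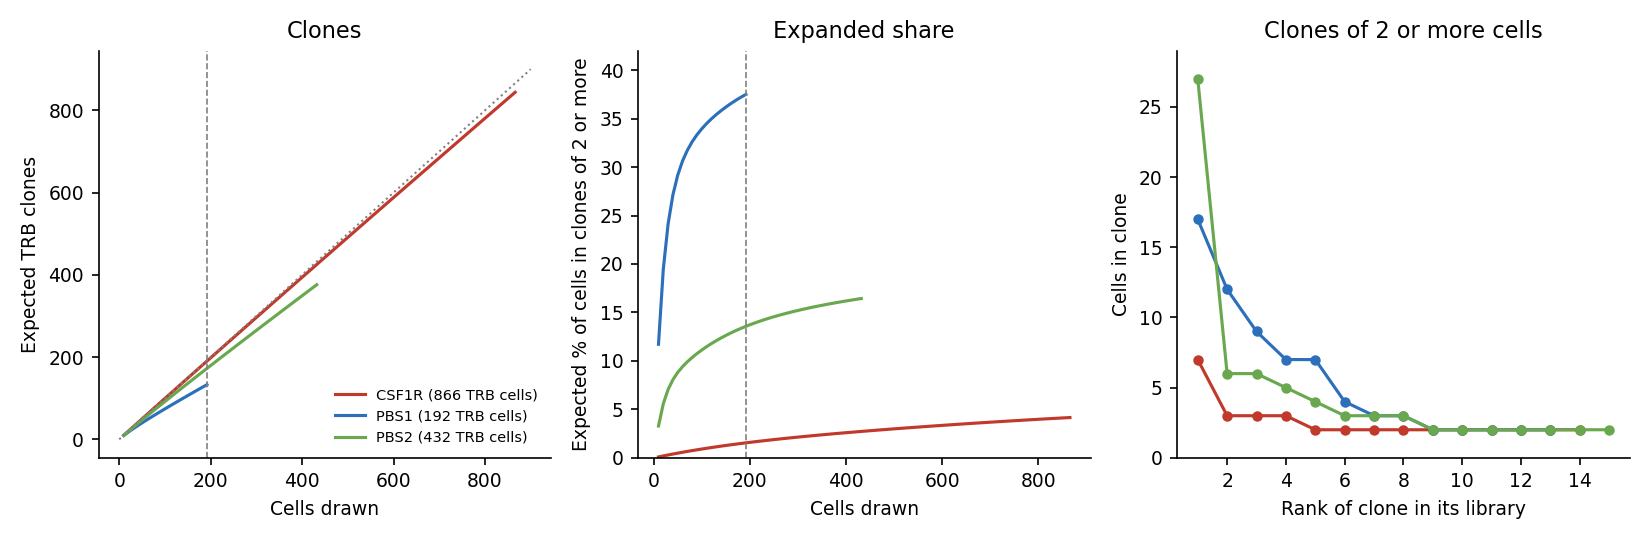
Left, expected number of TRB clones against cells drawn (the dotted line is 1 clone per cell); middle, expected percentage of drawn cells in clones of 2 or more; right, cells in each clone of 2 or more by its rank. Red is CSF1R, blue PBS1 and green PBS2, and the dashed line is 192 cells, where the expanded share is 1.55%, 37.5% and 13.6%.

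Clones were defined by the beta chain alone, so the alpha chain gives a separate reading of them. In CSF1R 7 of 14 expanded clones had at least 2 cells with the same TRA CDR3 nucleotides, 4 had cells with different TRA only, and 3 had fewer than 2 cells with a TRA. In PBS1 the numbers were 10, 1 and 2 of 13, and in PBS2 13, 0 and 2 of 15. Every clone of 3 or more cells shared its alpha chain, 4 of 4 in CSF1R, 8 of 8 in PBS1 and 8 of 8 in PBS2. The CSF1R clones with different alpha chains all held 2 cells. Of the CSF1R clones of 2 cells, 3 shared an alpha chain and 4 did not, against 2 and 1 in PBS1 and 5 and 0 in PBS2. TRB UMIs per cell ranged from 1 to 43 in the 4 discordant clones and from 1 to 46 in the 7 concordant ones. The discordant TRBV29 clone with TRBJ2-2 rests on 1 UMI in each cell. Counting only cells whose TRB and a TRA were both carried by another cell, 2.57% of CSF1R cells with both chains were expanded (1.53 to 4.03, 18 of 701). The share was 37.0% in PBS1 (29.8 to 44.7, 64 of 173) and 16.2% in PBS2 (12.6 to 20.3, 61 of 377). The order of the libraries was thus the same with both chains. These intervals treat cells of a clone as independent, so they understate the counting error, and the cell numbers are unequal. Drawn to 173 cells with both chains, the shares were 0.976% in CSF1R, 37.0% in PBS1 and 13.5% in PBS2.

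The largest CSF1R clone, of TRBV1 and TRBJ2-7, had a short CDR3 of 10 residues and made up 0.808% of TRB cells (0.326 to 1.66). All 4 of its cells with a TRA carried TRAV14N-3 with TRAJ48, an alpha chain found in 1 of 760 other cells with a TRA. Its TRB rested on 5 to 46 UMIs per cell. The clone of TRBV5 and TRBJ2-3 paired with TRAV12-1 and TRAJ53 in 2 of 2 cells with a TRA. The clone of TRBV1 and TRBJ2-5 paired with TRAV6-7-DV9 and TRAJ18 in 3 of 3 cells. TRBV1 thus led 2 of these 3 clones, and it also had the largest excess of cells over clones in CSF1R, 9.01% of cells against 8.18% of clones.

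Of the 10 largest CSF1R clones, 6 held 2 cells each, ordered by their TRB UMIs. They used TRBV31 with TRBJ2-7, TRBV13-1 with TRBJ1-4, TRBV13-3 with TRBJ2-7, TRBV13-1 with TRBJ2-7, TRBV19 with TRBJ2-7 and TRBV13-2 with TRBJ2-5. The first 3 of these had different alpha chains in their cells. The fourth had a TRA in 1 cell, the fifth in none, and the last shared TRAV6D-4 with TRAJ27 in 2 of 2 cells. By the TRA contig with the most UMIs per cell, this last clone is counted below under TRAV6-6 with TRAJ37.

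PBS1 expansion was carried by more than its leading clone. Its 17-cell clone of TRBV14 and TRBJ2-4 shared TRAV12-1 and TRAJ45 in 15 of 16 cells with a TRA. Its 12-cell clone of TRBV13-2 and TRBJ1-4 shared TRAV9N-4 and TRAJ18 in 12 of 12. The next clones held 9 cells (TRBV13-3 with TRBJ2-7, TRAV14N-1 and TRAJ37), 7 cells (TRBV20 with TRBJ1-3, TRAV5N-4 and TRAJ49) and 7 cells (TRBV14 with TRBJ2-3, TRAV12-1 and TRAJ45). In PBS2 the 27-cell clone of TRBV13-2 and TRBJ2-5 stood apart, with TRAJ39 in 24 of 24 cells and its V gene named TRAV12D-2 or TRAV12N-1. It was followed by 2 clones of 6 cells, of TRBV13-1 with TRBJ2-7 and of TRBV14 with TRBJ1-3, by 5 cells of TRBV13-2 with TRBJ1-3 and by 4 cells of TRBV1 with TRBJ2-7. In PBS1, 4 clones lay 1 base from a larger clone of the same TRBV gene. CSF1R and PBS2 had 0 such clones.

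Clones of the 3 libraries hardly overlapped in nucleotides. PBS1, with 133 TRB clones, and PBS2, with 376, had 0 in common. CSF1R, with 844, shared 0 with PBS1 and 1 with PBS2. The shared sequence joins TRBV1 directly to TRBJ2-7 with 0 bases that belong to neither, and its alpha chains differed, TRAV13D-2 with TRAJ49 in the 1 CSF1R cell and TRAV14N-3 with TRAJ47 in PBS2.
CSF1R and PBS2, TRBV1 and TRBJ2-7: tgcagtgcagactatgaacagtacttc
By amino acids and TRBV gene there were 844 beta chains in CSF1R, 131 in PBS1 and 376 in PBS2. CSF1R shared 2 of them with PBS1 and 3 with PBS2, and PBS1 shared 2 with PBS2. The beta chains found in CSF1R and elsewhere were the TRBV1 and TRBJ2-7 chain above, a TRBV1 and TRBJ2-3 chain with PBS1, a TRBV13-2 and TRBJ1-3 chain with PBS2, and a TRBV13-1 and TRBJ1-6 chain in all 3. Their joints were short, at 0 to 8 bases, and their alpha chains differed wherever both were known. The chain of TRBV13-1 and TRBJ1-6 shows how the same residues were reached by different joints.
CSF1R, TRBV13-1 and TRBJ1-6: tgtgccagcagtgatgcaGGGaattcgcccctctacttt
PBS1, TRBV13-1 and TRBJ1-6: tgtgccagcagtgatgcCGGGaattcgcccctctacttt
PBS2, TRBV13-1 and TRBJ1-6: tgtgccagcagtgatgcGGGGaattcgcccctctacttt

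Some receptors recurred with the same genes on both chains. Among 1132 clones with a TRA, 13 combinations of 4 V and J genes occurred in more than 1 clone, 6 of them within a library, 6 in a pair of libraries and 1 in all 3. Of the 6 within a library, 4 are PBS1 pairs of clones whose beta chains differ by 1 base, as counted above. In 1 of these pairs, of TRBV13-1 with TRBJ1-1, TRAV16N and TRAJ37, the alpha chains also differed, at 2 bases. Its residues were the same on both chains. In the other pairs of this kind the alpha nucleotides were the same. All the combinations were chosen after the values were seen, so they are a description. In the combination found in all 3, TRBV13-1 (chromosome 6, 41116036 to 41116468 in GRCm38) had joined TRBJ2-7 (chromosome 6, 41543810 to 41543856) and paired with TRAV14N-1 and TRAJ58. The CSF1R clone and the 6-cell PBS2 clone had the same alpha chain residues, from alpha nucleotides that differed at 1 base, and beta chains that differed at 3 of 13 residues. The 4-cell PBS1 clone and the 1-cell PBS2 clone had the same residues on both chains, from 2 differing bases in the beta chain and 1 in the alpha chain. The CSF1R beta chain differed from these at 2 residues. TRAV14N-1 with TRAJ58 was the alpha chain of 1 of 17 CSF1R clones with TRBV13-1, TRBJ2-7 and a TRA, of 1 of 2 in PBS1 and of 2 of 7 in PBS2. With any beta chain it was found in 2 CSF1R clones, 1 PBS1 clone and 2 PBS2 clones. In CSF1R the pairing rests on the 1 cell of the clone with a TRA.

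Another recurrent alpha chain was found in the PBS libraries. TRAV12-1 with TRAJ45 and the same 15 residues was carried by 3 TRBV14 clones of 25 cells in PBS1, with TRBJ2-4 and TRBJ2-3, and by the 6-cell TRBV14 clone with TRBJ1-3 in PBS2. The alpha nucleotides, with the differing base in capitals, were these.
PBS1, TRAV12-1 and TRAJ45: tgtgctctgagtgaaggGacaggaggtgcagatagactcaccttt
PBS2, TRAV12-1 and TRAJ45: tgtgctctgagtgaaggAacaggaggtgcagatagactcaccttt
None of 28 CSF1R clones with TRBV14 and a TRA carried it, which allows a share of up to 10.7%. In PBS1 it was found in 3 of 8 such clones and in PBS2 in 1 of 13. Of the PBS1 clones, 1 holds 1 cell and differs from the 17-cell clone by 1 base.

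Alpha chains were also set side by side without their partners. By residues, CSF1R and PBS2 had 18 TRA CDR3 in common, 2.18% of the 825 in CSF1R and 4.58% of the 393 in PBS2. CSF1R and PBS1 had 4 in common, 0.485% of CSF1R and 2.88% of the 139 in PBS1. PBS1 and PBS2 had 6, 4.32% and 1.53%. By nucleotides these counts were 5, 0 and 1.

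In beta V gene use by clone, no common gene set CSF1R apart from both PBS libraries. Of 14 TRBV genes with a mean share of at least 2% of clones, 0 were higher in CSF1R than in both PBS libraries by 1.5 times or more (0.0% called) and 0 were lower by that factor (0.0% called). The PBS libraries differed from each other by 1.5 times in 6 of the 14. CSF1R lay above both in 4 genes, below both in 5 and between them in 5, and in none was its interval apart from both PBS intervals. Shares are given in the order CSF1R, PBS1 and PBS2. TRBV13-2, the most used gene, took 12.3%, 16.5% and 14.4% of clones, lowest in CSF1R. TRBV13-1 took 10.9%, 6.77% and 12.2%, and TRBV13-3 6.75%, 6.77% and 9.31%. The 3-gene TRBV13 family, known in older names as Vβ8 and common in laboratory mice, together took 29.98% (26.9 to 33.2), 30.1% (22.4 to 38.6) and 35.9% (31.1 to 41.0).

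TRBV5 was the gene with the largest excess in CSF1R, at 10.9% of clones (8.88 to 13.2), against 7.18% in PBS2 (4.79 to 10.3) and 7.52% in PBS1 (3.66 to 13.4). It was 1.45 times the PBS1 share and 1.52 times the PBS2 share, just short of the rule in PBS1. By cells it was 10.97%, 5.21% and 6.71%. TRBV1, TRBV20 and TRBV31 also stood above both PBS libraries. TRBV1 took 8.18%, 6.77% and 5.85% of clones, TRBV20 7.70%, 5.26% and 5.32%, and TRBV31, the V gene on the far side of the constant genes, 7.35%, 3.76% and 6.12%. TRBV19 took 10.5%, 13.5% and 8.78%, TRBV4 7.11%, 3.01% and 7.98%, and TRBV2 4.27%, 6.02% and 5.85%. Of these 3, CSF1R lay between the PBS libraries in TRBV19 and TRBV4 and below both in TRBV2.

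The largest change with counting cells in place of clones was in PBS1. There TRBV14 went from 6.02% of clones to 16.7% of cells, with the 2 leading TRBV14 clones. In CSF1R it was 3.91% and 3.81%. TRBV13-2 in PBS2 went from 14.4% to 20.4%, and in CSF1R from 12.3% to 12.4%. Counting cells, TRBV1 and TRBV5 were past 1.5 times in CSF1R.

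**Figure D2:**
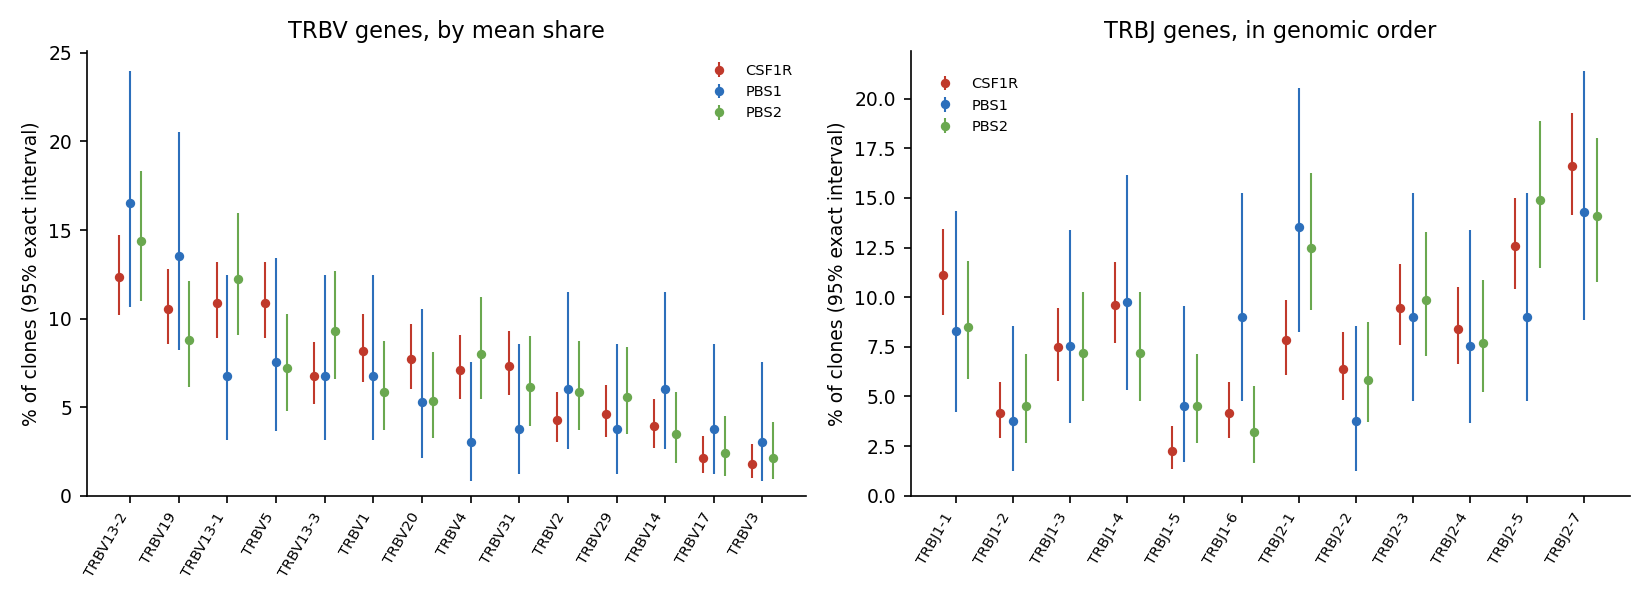
Percentage of clones using each TRBV gene with a mean share of at least 2% (left, by mean share) and each TRBJ gene (right, by position), each clone counted once. Points are library values with exact 95% intervals, red CSF1R, blue PBS1 and green PBS2; the CSF1R interval overlaps that of at least 1 PBS library in every gene, and TRBJ2-1 and TRBJ1-5 are the genes past 1.5 times.

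The joining genes of the beta chain lie in 2 clusters, TRBJ1 and TRBJ2, each behind its own D gene and ahead of its own constant gene. Of 12 TRBJ genes, 0 were higher in CSF1R than in both PBS libraries by 1.5 times (0.0% called) and 2 were lower (16.7% called). TRBJ2-1 was used by 66 of 844 CSF1R clones, 7.82% (6.10 to 9.84), by 13.5% of PBS1 clones (8.22 to 20.5) and by 12.5% of PBS2 clones (9.33 to 16.3). TRBJ1-5 was used by 19 CSF1R clones, 2.25% (1.36 to 3.49), by 4.51% in PBS1 (1.67 to 9.56) and by 4.52% in PBS2 (2.66 to 7.14). In both genes the PBS libraries were close to each other, and the CSF1R interval overlapped those of both. Counting cells, neither was past 1.5 times: TRBJ2-1 was at 7.85%, 9.38% and 11.8%, and TRBJ1-5 at 2.19%, 3.12% and 3.94%. Leaving out cells with 2 or more TRB or 3 or more TRA contigs, TRBJ1-5 alone was past it.

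TRBJ2-7 led in CSF1R with 16.6% of clones, against 14.3% and 14.1%, and TRBJ1-1 stood at 11.1%, 8.27% and 8.51%. The remaining TRBJ genes with a mean share of 5% or more were within or near the PBS range. TRBJ2-5 took 12.6%, 9.02% and 14.9%, TRBJ2-3 9.48%, 9.02% and 9.84%, TRBJ1-4 9.60%, 9.77% and 7.18%, and TRBJ2-4 8.41%, 7.52% and 7.71%. TRBJ1-3 took 7.46%, 7.52% and 7.18%, TRBJ1-6 4.15%, 9.02% and 3.19%, and TRBJ2-2 6.40%, 3.76% and 5.85%. The TRBJ2 cluster as a whole took 61.3% (57.9 to 64.6) in CSF1R, between 57.1% (48.3 to 65.7) in PBS1 and 64.9% (59.8 to 69.7) in PBS2. TRBD2 lies behind the TRBJ1 cluster and can join TRBJ1 only by an unusual rearrangement, so its calls in TRBJ1 clones gauge the D calls. They were 7.42%, 8.57% and 13.5% of TRBJ1 clones with a D gene.

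The commonest V and J pairing of CSF1R was TRBV5 with TRBJ2-7, in 20 clones or 2.37%, against 1 clone in PBS1 (0.752%) and 3 in PBS2 (0.798%). TRBV13-1 and TRBV19 with TRBJ2-7 followed with 19 clones each (2.25%), against 2 clones each in PBS1 and 7 and 6 in PBS2. At 133 clones drawn from each library, the expected number of different V and J pairs was 84.03 in CSF1R, 87 in PBS1 and 85.4 in PBS2. Breadth of beta gene use was thus alike at equal clone numbers.

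Alpha chains were compared over 686 CSF1R clones with a TRA, 117 in PBS1 and 329 in PBS2. At 117 clones the expected number of TRAV genes was 43.0, 45 and 41.5. Of 35 TRAV genes with a mean share of at least 1%, 2 were higher in CSF1R by 1.5 times than in both PBS libraries (5.71% called) and 2 were lower (5.71% called), while the PBS libraries differed by that factor in 24. TRAV9D-1 was carried by 32 CSF1R clones, 4.66% (3.21 to 6.52), by 1 PBS1 clone, 0.855% (0.0216 to 4.67), and by 9 PBS2 clones, 2.74% (1.26 to 5.13). TRAV13D-2 was carried by 17 CSF1R clones, 2.48%, by 1 in PBS1, 0.855%, and by 3 in PBS2, 0.912%. TRAV12-1 was lower, with 6 CSF1R clones or 0.875% (0.322 to 1.89), 6 PBS1 clones or 5.13% (1.90 to 10.8) and 7 PBS2 clones or 2.13% (0.860 to 4.33). TRAV6-2 was at 1.02%, 1.71% and 1.82%. TRAV12-1 was the gene of the recurrent PBS alpha chain, and by cells it reached 15.03% in PBS1 against 0.999% in CSF1R and 2.65% in PBS2. TRAV copies named N or D are near-identical, so the split between copies is uncertain.

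The 10 most used TRAV genes were TRAV16N, TRAV6-6, TRAV3-3, TRAV6-7-DV9, TRAV8D-1, TRAV12D-2, TRAV4N-4, TRAV9-4, TRAV13-1 and TRAV5N-4. In CSF1R they ranged from 2.62% (TRAV8D-1 and TRAV12D-2) to 5.69% (TRAV6-6). None of the 10 was past 1.5 times in CSF1R. TRAV12D-2, the V gene of the leading PBS2 clone, was at 2.57% of CSF1R cells and 10.9% of PBS2 cells.

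Of 33 TRAJ genes with a mean share of at least 1%, 2 were higher in CSF1R (6.06% called) and 3 lower (9.09% called). TRAJ30 was at 3.499% (2.25 to 5.16) in CSF1R, 1.71% in PBS1 and 1.82% in PBS2, and TRAJ12 at 2.62%, 1.71% and 1.52%. TRAJ9 was at 1.60%, 2.56% and 2.43%, TRAJ24 at 0.583%, 1.71% and 1.52%, and TRAJ6 at 0.437%, 0.855% and 1.82%. The PBS libraries differed by 1.5 times in 16 of the 33, and the PBS1 shares past the rule rest on 1 to 3 clones each. With cells of 2 or more TRB or 3 or more TRA contigs left out as possible doublets, TRAJ12, TRAJ9 and TRAJ24 were no longer past it. With contigs of 3 or more UMIs TRAJ6 was not, and counting cells TRAJ9 was not. The 5 most used, TRAJ52, TRAJ45, TRAJ37, TRAJ53 and TRAJ15, took 4.52%, 3.94%, 3.21%, 2.77% and 3.35% of CSF1R clones, and none was past the rule. Successive rearrangements of the alpha locus move outward, from V genes near the J cluster to those far from it and from upstream to downstream J genes. The upstream TRAJ58 to TRAJ47 made up 31.6% of CSF1R clones (28.2 to 35.3), 30.8% of PBS1 clones and 31.9% of PBS2 clones. The downstream TRAJ18 to TRAJ2 made up 18.1%, 21.4% and 18.5%. The 3 libraries were thus alike along the J cluster.

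**Figure D3:**
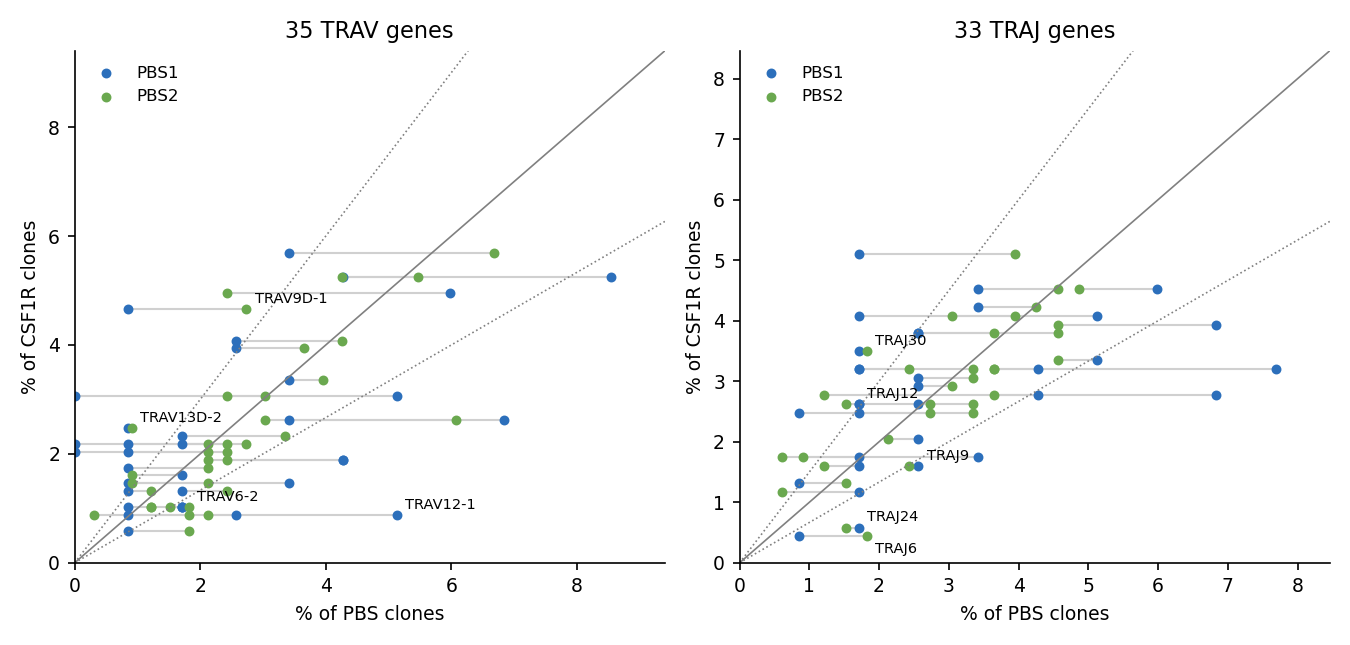
Percentage of CSF1R clones (vertical) against percentage of PBS clones (horizontal) using each of 35 TRAV genes (left) and 33 TRAJ genes (right). Each gene has a blue point for PBS1 and a green point for PBS2 joined by a grey line, the solid line is equality, the dotted lines are 1.5 times either way, and the named genes have both points outside them.

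Superantigens of endogenous mammary tumour viruses delete T cells by their beta V gene in Balb/c mice. The genes concerned, here TRBV12-1, TRBV12-2, TRBV15, TRBV16 and TRBV26, were together rarest in CSF1R. They made up 10 of 844 clones, 1.18% (0.570 to 2.17), against 9 of 133 in PBS1, 6.77% (3.14 to 12.5), and 12 of 376 in PBS2, 3.19% (1.66 to 5.51). CSF1R lay below both, and its interval was apart from that of PBS1 and not from that of PBS2. TRBV12-2 had 0 clones in CSF1R, which allows a share of up to 0.355%, 4 in PBS1 and 1 in PBS2. TRBV16 had 6, 3 and 6 clones, TRBV15 1, 2 and 0, TRBV26 1, 0 and 3, and TRBV12-1 2, 0 and 2. No member reached the mean share of 2% needed for the gene count. Among distinct nonproductive rearrangements, which make no receptor, the list held 4 of 42 in CSF1R, 3 of 14 in PBS1 and 3 of 17 in PBS2.

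Invariant T cells were at the limit of detection. The alpha chain of natural killer T cells, TRAV11 with TRAJ18, was found in 0 of 764 CSF1R cells with a TRA, which allows up to 0.393%, in 1 of 188 in PBS1 and in 1 of 404 in PBS2. That of mucosal-associated invariant T cells, TRAV1 with TRAJ33, was found in 1, 1 and 0 cells.

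The beta chain CDR3 was as long in CSF1R as in the PBS libraries. Mean length over clones was 13.8 residues in CSF1R (SD over clones 1.57), 13.8 in PBS1 (SD 1.85) and 13.7 in PBS2 (SD 1.51), with a median of 14 in each. CSF1R lay between the PBS libraries, which were 0.138 residues apart. A length of 14 was carried by 27.3% of CSF1R clones, 24.8% of PBS1 clones and 34.3% of PBS2 clones. CDR3 of 11 or fewer residues made up 7.35%, 8.27% and 7.98%, and those of 17 or more 4.27%, 5.26% and 2.93%. The alpha chain CDR3 averaged 13.5, 13.8 and 13.6 residues.

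The joint between V and J bases was alike as well. It averaged 9.65 bases in CSF1R (SD over clones 4.11), 9.68 in PBS1 (SD 6.005) and 9.66 in PBS2 (SD 4.295). Joints of 3 or fewer bases made up 7.41% (5.73 to 9.40), 7.14% (3.32 to 13.1) and 6.78% (4.43 to 9.84). These could be measured in 837 of 844, 126 of 133 and 369 of 376 clones, those whose genes had enough clones to read the ends from.

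**Figure D4:**
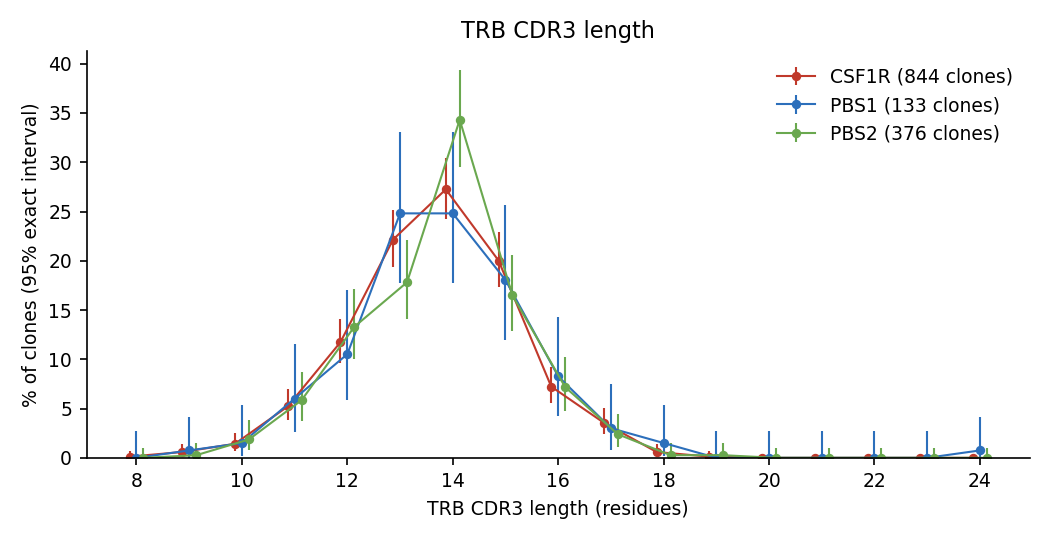
Percentage of clones (vertical, exact 95% intervals) by length of the beta chain CDR3 in residues (horizontal), each clone counted once, for CSF1R (red, 844 clones), PBS1 (blue, 133) and PBS2 (green, 376). The libraries differ most at 13 and 14 residues, and the highest point is PBS2 at 14, at 34.3%.

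The middle of the loop, without the first 4 and last 4 residues, was compared by composition. Of 20 amino acids, CSF1R lay above both PBS libraries in 4, below both in 4 and between them in 12. Glycine, which the D genes encode in their main reading frames, was the commonest at 22.7% of central residues, against 19.8% and 22.9%. Arginine was at 5.99%, 4.12% and 5.46%, the widest excess among the common residues. Alanine was lower, at 6.79%, 8.38% and 7.42%, and tyrosine at 3.86%, 4.77% and 4.34%. Cysteine was found in 1 CSF1R clone and in none of the PBS clones, which is too few to compare, and none of the other 19 residues was past 1.5 times against both PBS libraries.

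The net charge of the whole CDR3, counting lysine and arginine as plus 1 and aspartate and glutamate as minus 1, averaged -0.677 in CSF1R, -0.774 in PBS1 and -0.739 in PBS2. CSF1R was the least negative, 0.0628 above PBS2, with 0.0351 between the PBS libraries. These means carry no interval for counting error. A net negative loop was carried by 56.8% of CSF1R clones (53.3 to 60.1), 62.4% of PBS1 clones (53.6 to 70.7) and 61.2% of PBS2 clones (56.0 to 66.1). The CSF1R interval overlapped both PBS intervals. With contigs of 3 or more UMIs the means were -0.674, -0.699 and -0.758, and CSF1R was then nearer to PBS1 than the PBS libraries were to each other. A net positive loop was carried by 12.6% of CSF1R clones (10.4 to 14.99), 12.03% of PBS1 clones (7.04 to 18.8) and 7.98% of PBS2 clones (5.45 to 11.2).

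Hydrophobic residues at both positions 6 and 7 of the CDR3, counted from its first cysteine, are known from work on other repertoires to favour self-reactivity. Here cysteine, phenylalanine, isoleucine, leucine, methionine, valine and tryptophan were counted. They occurred in 11 of 844 CSF1R clones, 1.30% (0.652 to 2.32), in 0 of 133 PBS1 clones, which allows up to 2.26%, and in 3 of 376 PBS2 clones, 0.798% (0.165 to 2.31). The intervals overlapped, and a difference was not detectable at these numbers of clones.

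Pairing of the chains was as frequent in CSF1R as in the PBS libraries, at lower depth. Both chains were found in 71.1% of CSF1R cells (68.2 to 73.9), 70.6% of PBS1 cells (64.5 to 76.2) and 68.3% of PBS2 cells (64.2 to 72.2). Counting every contig, the cells without a pair differed in kind. A TRB alone was found in 16.7% of CSF1R cells (14.5 to 19.2), against 7.76% (4.73 to 11.8) and 9.96% (7.59 to 12.8). Neither chain was found in 5.78% of CSF1R cells (4.41 to 7.43), against 15.5% (11.2 to 20.7) and 16.8% (13.8 to 20.2). In both classes the CSF1R interval was apart from both PBS intervals. With contigs of 3 or more UMIs, neither chain was left in 18.4% of CSF1R cells, 21.2% of PBS1 cells and 24.6% of PBS2 cells. With 5 or more, a minimum chosen after seeing the data, the order turned, to 46.3%, 29.8% and 38.6%. A TRB alone was most frequent in CSF1R at each of these minimums, at 38.0% against 14.7% and 24.5% with 3 UMIs. With 10 or more UMIs it was least frequent in CSF1R, at 13.1% against 24.9% in PBS1 and 17.2% in PBS2. A TRA alone was found in 6.39%, 6.12% and 4.89%.

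Among cells with a TRB, 80.9% had a TRA in CSF1R (78.2 to 83.5), 87.3% in PBS2 (83.8 to 90.3) and 90.1% in PBS1 (85.0 to 93.9). The order is that of the median TRA UMIs per cell, at 3 in CSF1R, 4 in PBS2 and 6 in PBS1, whose part in it was not tested. With each cell thinned to 5 productive UMIs, the expected share with both chains was 75.7%, 75.3% and 77.4%, over 721, 185 and 397 cells, with 208, 22 and 62 shallower cells left out. When contigs needed 3 UMIs, both chains were left in 33.2% of CSF1R cells (30.2 to 36.2), 53.9% of PBS1 cells and 43.5% of PBS2 cells. The order of the libraries in pairing thus depends on how depth is treated.

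**Figure D5:**
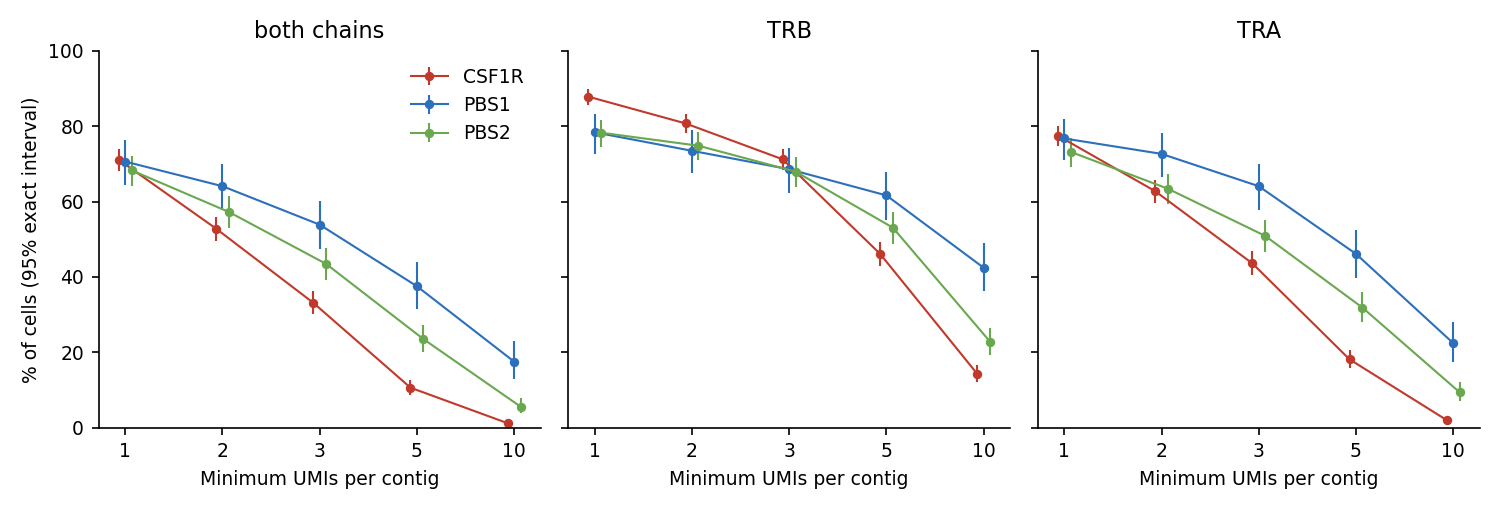
Percentage of called cells (vertical, exact 95% intervals) with both chains, with a TRB and with a TRA, as the minimum number of UMIs per contig (horizontal, not to scale) goes from 1 to 10. CSF1R (red) starts level with PBS1 (blue) and PBS2 (green) for both chains at 1 UMI and lies below them at 3 UMIs, at 33.2% against 53.9% and 43.5%.

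A cell normally displays a beta chain from a single chromosome, while its second alpha locus often makes a second chain. Cells with 2 or more productive TRB contigs made up 12.2% of TRB cells in CSF1R (10.1 to 14.6), 22.9% in PBS2 (19.0 to 27.2) and 14.6% in PBS1 (9.91 to 20.4). With high-confidence contigs only, the shares were 3.12%, 2.60% and 3.70% in CSF1R, PBS1 and PBS2, and CSF1R lay between the PBS libraries. In most of the cells with 2 or more contigs, these had the same CDR3: 69 of 106 in CSF1R, 20 of 28 in PBS1 and 72 of 99 in PBS2. Cells with different TRB CDR3 made up 4.27% of TRB cells in CSF1R (3.03 to 5.84), 6.25% in PBS2 (4.16 to 8.96) and 4.17% in PBS1 (1.82 to 8.04). Different TRA CDR3 in a cell were found in 13.5% of CSF1R cells with a TRA (11.1 to 16.1), 13.8% in PBS1 and 13.1% in PBS2. The 3 libraries did not differ beyond their counting intervals in either measure of different chains.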

How the data were processed

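Single-cell receptor libraries of CD45+ cells were made with 5′ and mouse T cell V(D)J kits, per the labels' protocols. Cell Ranger 3.0.2 and the builds mm10 and GRCm38 are named in the submitters' processing notes. The deposited contig table gives a read count and a UMI count per contig, whole numbers that were not normalized, with cell calls, gene names and CDR3 taken as the authors deposited them. Of 11 library names in the table, 6 were tied to a sample, and 3 of these are compared here. The other 5 were left out, and expression data were not analysed here. Gene positions are from a RefSeq table of GRCm38.p6, in which 32 of 32 TRB names matched; its strain is not Balb/c.

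Each cell took its TRB and TRA contig with the most UMIs. A clone was the set of cells of a library with the same TRBV gene and TRB CDR3 nucleotides. Doublets were kept, and leaving out possible ones, cells with 2 or more TRB or 3 or more TRA contigs, was tried. Most of the cells with 2 or more TRB contigs carried the same CDR3 in them, which does not mark a doublet. Values at equal numbers are exact hypergeometric expectations, with no random draws. Shares have Clopper-Pearson 95% intervals for counting error alone, and a 0 allows up to 3 counts of the total. For shares of cells in clones, the intervals treat cells of a clone as independent and so understate that error. A gene was called where the CSF1R share was at least 1.5 times the higher or at most 1/1.5 of the lower PBS share, among genes with a mean share of at least 2% (TRB) or 1% (TRA). Joints were read against majority V and J ends of genes with 10 or more clones.

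Members, lists and rules were chosen with earlier results of these data known. Named genes are the TRBV and TRBJ genes at a mean of 5% or more, the 10 TRAV and the 5 TRAJ genes of highest mean share, genes past the rule, the superantigen, NKT, MAIT and TRBV13 lists, the 10 largest CSF1R and 5 largest PBS clones (ties by UMIs), and beta chains shared between CSF1R and a PBS library. TRBV14, the V and J pairs and the recurrent alpha chains were chosen after their values were seen. Scripts were tested on simulated data and ran under Python 3.11.15 with pandas 2.3.3, scipy 1.17.1, matplotlib 3.10.9 and numpy 2.4.6. Of the named CSF1R clones, 1 is not reported here.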

Additional observations from a re-analysis of the deposited data

How the results depend on the processing

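Values are CSF1R minus the mean of PBS1 and PBS2, in points, or counts of genes past 1.5 times. In the 13 alternatives for the expanded share CSF1R stayed below both PBS libraries, and in the 11 for clones at equal cell numbers it stayed above both. Against the mean of both PBS libraries, the alternatives for the expanded share gave -25.7 to -20.7. Against PBS1 alone the value was -35.95, and against PBS2 alone -12.02. Leaving out a PBS library cannot change the order of the libraries, and high-confidence contigs left these values unchanged. The share of cells with both chains, 1.64 in the main calculation, turned to -15.5 with contigs of 3 or more UMIs and to -0.636 with cells thinned to 5 UMIs, and was 4.13 with possible doublets left out. The share of TRB cells with 2 or more TRB contigs, -6.51, was -0.0362 with high-confidence contigs only. Mean charge, 0.0804, was 0.0540 with contigs of 3 or more UMIs and 0.122 with each cell counted once.

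The 0 TRBV genes became 2 with contigs of 3 or more UMIs and 2 counting cells. The 2 TRBJ genes became 1 without possible doublets, 0 counting cells, 1 at a fold of 2 and 1 with the minimum share doubled. The 4 TRAV genes became 13 with contigs of 3 or more UMIs, 8 without possible doublets, 2 at a fold of 2 and 2 with the minimum share doubled. The 5 TRAJ genes became 4 without possible doublets, 2 of them among the 5, and 7 with contigs of 3 or more UMIs, 4 of them among the 5. They became 1 at a fold of 2 and 2 with the minimum share doubled. Leaving out PBS1 and then PBS2 gave 1 and 6 TRBV, 2 and 4 TRBJ, 12 and 24 TRAV and 9 and 18 TRAJ genes, since 1 library then sets the range. The cause was not tested for the other changes.

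Gene calls thus depend on these choices, and the TRA calls rest on few clones. No paired analysis was possible because the libraries carry no number that pairs CSF1R with a PBS library and no test was made. The order of cells sharing both chains, an alternative chosen after seeing the data, was the same. The depth of CSF1R limits what its pairing can show.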

Other observations

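Barcodes not called as cells also carried receptor contigs. They numbered 383 in CSF1R, 269 in PBS1 and 661 in PBS2. They held 152 productive TRB contigs in CSF1R, 55 in PBS1 and 181 in PBS2, of which 124, 46 and 158 rested on 1 UMI.

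Distances between the libraries in gene use can be set beside each other. They were summed over the genes at the minimum mean share, 14 of 20 TRBV, 35 of 63 TRAV, 33 of 42 TRAJ and all 12 TRBJ genes. Differences in rarer genes are left out, so values of different gene kinds are not on the same footing. Over these genes, the share of TRBV use that differed was 10.9% for CSF1R and PBS2, 16.9% for CSF1R and PBS1, and 15.2% for the PBS libraries. For TRAV it was 13.1%, 25.8% and 29.5%. For TRBJ it was 10.02%, 13.1% and 9.986%, and for TRAJ 10.6%, 22.1% and 21.7%. CSF1R and PBS2, the 2 libraries with the most clones, were the closest pair in TRBV, TRAV and TRAJ, and in TRBJ they were level with the PBS pair. PBS1 has the fewest clones.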
